A study of Arabidopsis thaliana with 6 samples.

Results

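The defence WRKY transcription factors are 10 Arabidopsis thaliana genes, WRKY6 (AT1G62300), WRKY18 (AT4G31800), WRKY22 (AT4G01250), WRKY29 (AT4G23550), WRKY33 (AT2G38470), WRKY40 (AT1G80840), WRKY46 (AT2G46400), WRKY53 (AT4G23810), WRKY54 (AT2G40750) and WRKY60 (AT2G25000). They were chosen by name for their known part in the plant immune response, with earlier results of these data known. They were found by their identifiers, as 10 of the 44200 features of the count table. Whole-seedling polyadenylated RNA was sequenced in 6 libraries, 3 from wild-type Col-0 and 3 labelled nsra/b, a double mutant in Col-0 of the nuclear speckle RNA-binding proteins NSRa and NSRb, which act in alternative splicing. Each mutated gene carries a T-DNA insertion from a single line, of the SALK collection for NSRa and of the SAIL collection for NSRb. All 6 libraries came from plants grown in long days on MS medium, transferred at 14 days to fresh medium of the same kind as a mock treatment for 24 h, and collected at 15 days. The study's methods give a younger age. Neither group received a pathogen, an elicitor or a hormone, so the comparison asks how the resting levels of these genes differ between the genotypes. Nothing in the labels says whether the libraries came from separate cultures, while the methods call them biological replicates. The p-values set the difference between the genotypes against the spread among the 3 libraries of each.

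WRKY proteins bind DNA through a domain that carries the letters of their name and a zinc finger, and the site they prefer is the W-box. Many of their genes have W-boxes of their own, so that WRKY factors act on each other's promoters. Recognition of bacterial flagellin or fungal chitin at the cell surface starts a MAP kinase cascade, and within it WRKY33 is phosphorylated by MPK3 and MPK6 and turns on camalexin synthesis, which protects against necrotrophic fungi. WRKY22 and WRKY29 lie downstream of the flagellin receptor FLS2, WRKY18, WRKY40 and WRKY60 form complexes with each other and restrain basal defence, and WRKY46, WRKY53 and WRKY54 belong to the clade that acts with salicylic acid and in leaf senescence. WRKY6 is known for its part in senescence, defence and the response to phosphate shortage.

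The W-boxes before the members are shown first, since they are the feature by which these genes can act on one another. The letters searched were TTGACC and TTGACT on both strands, in TAIR10.1 sequence with gene starts from the RefSeq annotation. The sample labels name TAIR10, from which the nuclear chromosomes of TAIR10.1 are taken. All 10 members had at least 1 W-box in the 1000 bases before the gene start, 21 in all and 2.1 on average, and the average over 27441 protein-coding genes was 1.21. WRKY33 had 4, a number that 4.69% of these genes reached, WRKY18 and WRKY60 had 3 each (13.5%), WRKY6, WRKY29, WRKY40 and WRKY53 had 2 each (33.1%), and WRKY22, WRKY46 and WRKY54 had 1 each (67.3%). In the window from 250 bases before to 50 after the start, WRKY33, WRKY29 and WRKY53 had 2 each and the other 7 members had none, where 32.4% of all such windows held at least 1 and 7.7% at least 2. The window of WRKY33, the one member that passed the test, is printed in full (chr2:16107985-16108284, plus strand), with both W-boxes, each on the opposite strand, in capitals.
WRKY33: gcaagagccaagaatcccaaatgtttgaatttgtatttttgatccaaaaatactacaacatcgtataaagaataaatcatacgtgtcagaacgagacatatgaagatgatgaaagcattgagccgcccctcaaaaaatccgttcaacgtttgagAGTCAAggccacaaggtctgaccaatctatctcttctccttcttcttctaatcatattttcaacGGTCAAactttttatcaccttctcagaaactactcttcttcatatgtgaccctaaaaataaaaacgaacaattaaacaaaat

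In 4 members the W-boxes stood close together, with first bases at most 20 bases apart, a limit set after their positions were seen. Such a pair or more was found before 4.1% of all protein-coding genes. WRKY18 and WRKY60 each had 3 W-boxes in that span, and these 2 are among the 25 of the 27441 genes (0.0911%) that had at least 3. The stretches follow, from 25 bases before the first W-box to 25 after the last where the window allows, so that the arrangement in the 3 genes of the complex can be compared with that in WRKY29. They lie at chr4:15382016-15382087 for WRKY18, chr2:10629000-10629068 for WRKY60, chr1:30382723-30382784 for WRKY40 and chr4:12291567-12291631 for WRKY29, all on the plus strand, and capitals mark the W-boxes.
WRKY18: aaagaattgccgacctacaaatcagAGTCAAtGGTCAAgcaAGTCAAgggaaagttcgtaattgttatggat
WRKY60: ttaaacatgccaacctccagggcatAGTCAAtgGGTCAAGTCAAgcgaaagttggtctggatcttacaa
WRKY40: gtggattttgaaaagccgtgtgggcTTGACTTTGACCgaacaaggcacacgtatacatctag
WRKY29: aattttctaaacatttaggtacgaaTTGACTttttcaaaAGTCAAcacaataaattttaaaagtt
In WRKY18 and WRKY60 the 3 W-boxes were on the strand opposite to the gene, with a TTGACC between the outer ones, which read TTGACT, and in WRKY60 the last 2 of the 3 ran into one another. In WRKY40 a TTGACT was followed directly by a TTGACC on the gene's strand, and in WRKY29 the pair was on opposite strands within 40 bases of the start. These are matches of letters and were not tested for binding.

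**Figure D1:**
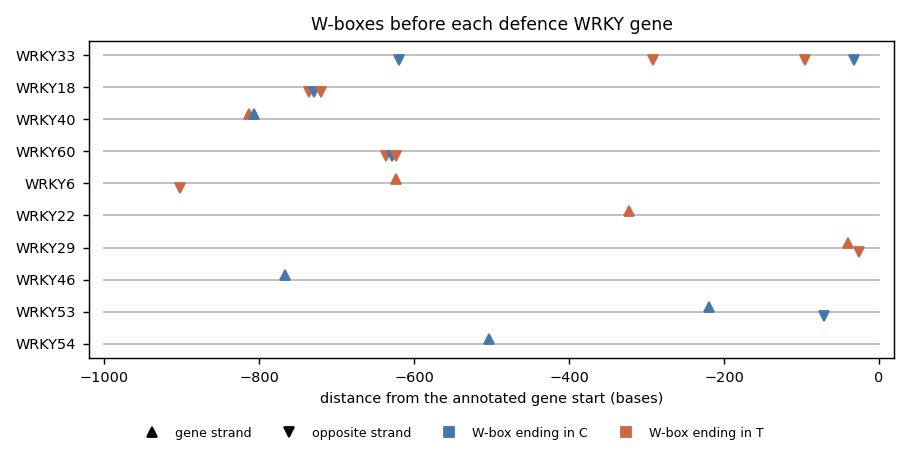
W-boxes in the 1000 bases before each defence WRKY gene, by distance in bases from the annotated start. Triangles that point up are on the gene's strand and those that point down on the opposite strand. WRKY33 has 4, spread from -620 to -32, while the 3 of WRKY18 and the 3 of WRKY60 each fall in a tight group.

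The mutated genes were examined before the members, as a check of the labels. The locus known as NSRa, AT1G76940, drew 396, 519 and 441 counts from the Col-0 libraries but 4987, 5898 and 5577 from those labelled nsra/b (log2 fold change 3.65 ± 0.04, SE). For NSRb, AT1G21320, the Col-0 libraries gave 17, 25 and 25 counts and those labelled nsra/b 81, 78 and 88 (log2 fold change 1.93 ± 0.18, SE). Both identifiers rest on general knowledge of these genes, as the files do not pair them with names. Both genes thus had more counts under the mutant label, counts per gene do not show whether a transcript is intact, and whether the labels of the genotypes were exchanged was not tested. Every direction below rests on the labels as given. Totals ran from 25936176 to 32578330 counts per library. Of 21606 features above the count filter, 1914 (8.86%) passed edgeR's quasi-likelihood test at an adjusted p under 0.01, 1140 (5.28%) higher and 774 (3.58%) lower in the libraries labelled nsra/b, with a median log2 fold change of 0 over all of them. Pairs of libraries of one genotype differed by 1.37 to 1.93 times counting noise (chi-square per degree of freedom over genes), and pairs of different genotypes by 5.19 to 6.04 times. The common biological coefficient of variation, the spread between replicates beyond counting noise, was only 0.0203, and the calls of small changes rest on it. With it fixed at 0.1, a setting added after seeing the data, 203 features were called. Summed levels of 10 root markers were 4276 to 4459 CPM (counts as parts of the library total, scaled by TMM) in Col-0 and 4628 to 5012 in the libraries labelled nsra/b, all 10 detected, and those of 10 leaf markers 63780 to 67330 and 59060 to 61210, all 10 detected. Most of the root sum was PYK10, with a mean of 4066 CPM in Col-0 and 4540 in the libraries labelled nsra/b. Of the root markers PYK10 and CASP1 rose, BGLU21 fell and 7 did not pass the test (30% called, where 8.86% of all features were). Of the leaf markers 4 fell, namely CAB1, CAB2, CAB3 and LHCB1.5, and 6 did not pass (40% called). The log2 fold changes of those 6 ran from -0.075 for LHCB2.1 to 0.055 for RBCS1B. Over all 10 leaf markers the median was -0.056, with 2 above 0 and 8 below. Neither sum overlapped between genotypes. PYK10 by itself did not overlap either (3992 to 4175 CPM in Col-0, 4354 to 4731 in the libraries labelled nsra/b). The root sum without PYK10 was not examined, so a shift of the root markers as a set is not shown. The part of either sum in the results on the members was not tested. In whole seedlings, fewer cells of a type and less RNA per cell cannot be told apart.

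All 10 members were above the filter, and 1 of them passed the test. WRKY33 rose by 11.0% in the libraries labelled nsra/b, and none fell. That is 10% of the members, against the background of 8.86% of all features. The median log2 fold change of the members was -0.02, with 4 above 0 and 6 below, and their estimates ran from -0.47 for WRKY54 to 0.28 for WRKY40. At an adjusted p under 0.05, which 14.9% of all features passed, WRKY22 joined WRKY33. WRKY22, WRKY33, WRKY40 and WRKY54 had values that did not overlap between the genotypes, 4 of 10 where 30.0% of all features had none. At an unadjusted p under 0.05 there were 6 members, where 26.7% of all features passed, and 9 did not pass the adjusted test, which does not show that they were alike in both genotypes.

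**Figure D2:**
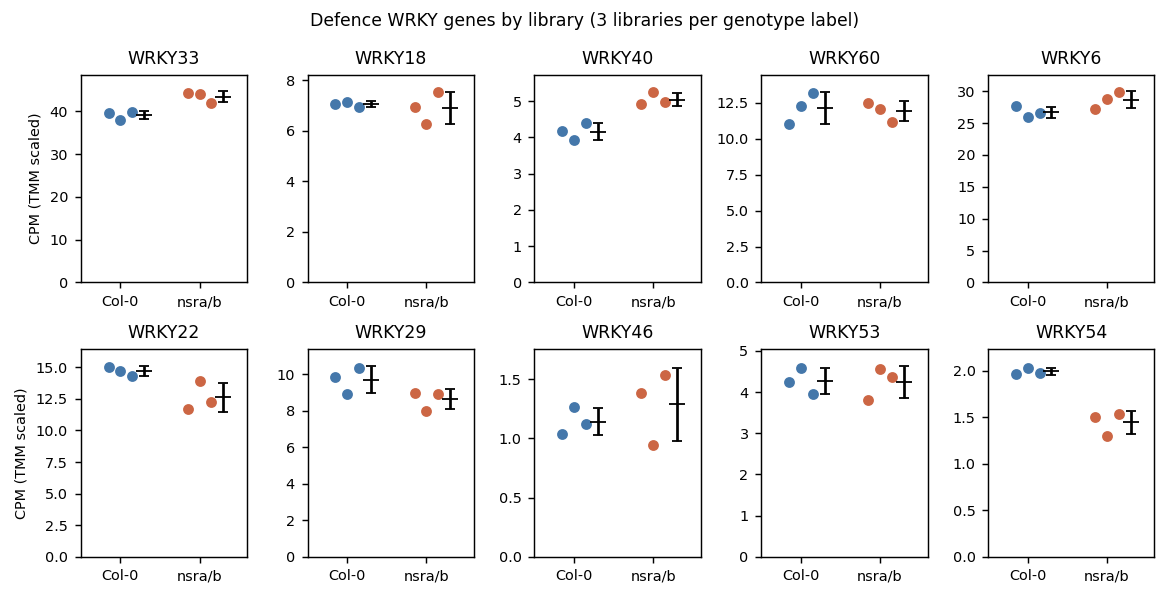
Level of each defence WRKY gene in the 6 libraries, in CPM scaled by TMM, with every axis from 0. Coloured points are libraries and black bars are the mean ± SD of 3. The points of WRKY33 and WRKY40 are all higher under the nsra/b label, those of WRKY22 and WRKY54 are all lower, and those of the other 6 genes overlap.

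WRKY33 (chr2:16108235-16110766, plus strand) stood at 39.5, 38.0 and 39.8 CPM in Col-0 and 44.2, 44.0 and 41.9 CPM in the libraries labelled nsra/b. The lowest library labelled nsra/b lay above the highest of Col-0. The counts behind these levels were 1063, 1234 and 1207 in Col-0 and 1150, 1352 and 1258 under the mutant label. The log2 fold change was 0.15 ± 0.04 (SE, 95% interval 0.07 to 0.23, edgeR adjusted p = 0.00528), smaller than the median absolute change of 0.24 among all called features. The call rested on the test used and on single libraries. DESeq2 gave the same estimate with a larger error (0.15 ± 0.05, adjusted p = 0.0557), and so called 0 members. In edgeR the call was lost without Col-0 replicate 1 (adjusted p = 0.014), 2 (0.0495) or 3 (0.0114) and without nsra/b replicate 1 (0.0171) or 2 (0.031), and was kept without nsra/b replicate 3 (0.00341). The log2 fold change stayed between 0.13 and 0.18 in these runs. Genes on the other strand overlap WRKY33, namely the long non-coding RNA gene AT2G08965 inside it (3 counts over all libraries together) and AT2G38480 over its last 26 bases (adjusted p = 0.444). Counting used the strand, so their reads are kept apart from those of WRKY33 save for reads placed on the wrong strand.

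In the WRKY18, WRKY40 and WRKY60 complex the estimate of WRKY40 was above 0 and the others were near it. WRKY40 (chr1:30383561-30385499, plus strand), a repressor of basal defence and of abscisic acid responses, had 112, 127 and 133 counts in Col-0, against 128, 161 and 149 in the libraries labelled nsra/b, or 4.16, 3.91 and 4.38 CPM against 4.92, 5.24 and 4.97. The groups did not overlap, and the log2 fold change of 0.28 ± 0.10 (SE, 95% interval 0.08 to 0.49) missed the threshold at edgeR adjusted p = 0.058. A gene on the other strand, AT1G80850, shares 51 bases with the end of WRKY40 (log2 fold change 0.24, adjusted p = 0.0797). WRKY18 (chr4:15382777-15385100, plus strand) stood at 7.06, 7.15 and 6.92 CPM in Col-0, closely grouped, and at 6.92, 6.25 and 7.53 CPM under the mutant label, to both sides of them. Its log2 fold change was -0.03 ± 0.09 (SE), with an interval of -0.21 to 0.15. WRKY60 (chr2:10629662-10631413, plus strand) spread more within Col-0 (11.0, 12.3 and 13.2 CPM) than between the genotypes (12.5, 12.1 and 11.2 CPM in the libraries labelled nsra/b), and its log2 fold change was -0.04 ± 0.07 (SE, interval -0.18 to 0.11). Both intervals end below the WRKY40 estimate but overlap the WRKY40 interval. Both estimates changed sign with a library left out. WRKY18 was at 0.041 without nsra/b replicate 2, and WRKY60 at 0.025 without Col-0 replicate 3 and 0.0093 without nsra/b replicate 3.

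Ratios within a library do not depend on its scaling. Of 7 count ratios of related WRKY genes, 4 had values that did not overlap between genotypes. Each of the 4 contains WRKY40 or WRKY54, whose own levels did not overlap, so the ratios are not separate evidence. Among single features 30.0% did not overlap, and the share among ratios of other genes was not examined. WRKY40 per WRKY18 was 0.589, 0.547 and 0.633 in Col-0 and 0.711, 0.839 and 0.659 in the libraries labelled nsra/b, and WRKY40 per WRKY60 was 0.378, 0.318 and 0.332 against 0.394, 0.433 and 0.445. In both the mutant-labelled libraries were the higher ones. The ratio of WRKY18 to WRKY60 overlapped, at 0.524 to 0.642 in Col-0 and 0.516 to 0.675 under the mutant label. With 3 libraries against 3, the exact two-sided permutation test cannot give a p below 0.1, which is the value for each of the 4 (0.175 after Benjamini-Hochberg adjustment over the 7).

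WRKY22 and WRKY29, which respond to flagellin downstream of FLS2, both had estimates below 0. WRKY22 (chr4:522530-524249, minus strand) was at 15.1, 14.7 and 14.3 CPM in Col-0 and at 11.7, 13.9 and 12.3 CPM in the libraries labelled nsra/b, every one of which was below Col-0. Its log2 fold change of -0.21 ± 0.06 (SE, interval -0.34 to -0.08) had an edgeR adjusted p of 0.0221 and so was not called at 0.01. The 3 libraries labelled nsra/b were the most uneven of any member for their counting noise (chi-square per degree of freedom 3.01), and without nsra/b replicate 2, the highest of them, the estimate was -0.29 with adjusted p = 0.00435. WRKY29 (chr4:12291632-12293367, plus strand) was at 9.85, 8.91 and 10.4 CPM in Col-0 and 9.0, 8.0 and 8.9 under the mutant label, with overlap, and its log2 fold change was -0.17 ± 0.08 (SE, interval -0.32 to -0.01, edgeR adjusted p = 0.161). The ratio of their counts overlapped between genotypes (1.38 to 1.65 in Col-0, 1.30 to 1.74 in the libraries labelled nsra/b). A gene annotated on the other strand over the end of WRKY29, AT4G23560, had 0 counts in every library.

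The clade of WRKY46, WRKY53 and WRKY54 held both the member with the lowest estimate and the one nearest to 0. WRKY54 (chr2:17000419-17002528, minus strand), which with its close relative WRKY70 holds back salicylic acid synthesis and senescence, had 53, 66 and 60 counts in Col-0, against 39, 40 and 46 in the libraries labelled nsra/b. These are 1.97, 2.03 and 1.98 CPM against 1.5, 1.3 and 1.5 CPM, which do not overlap. The log2 fold change of -0.47 ± 0.17 (SE, interval -0.81 to -0.13) missed the threshold (edgeR adjusted p = 0.0544), and at these counts the counting error alone was 14.1% of a library's value. WRKY53 (chr4:12392370-12393982, minus strand), a regulator of leaf senescence, had 114, 149 and 120 counts in Col-0, against 99, 140 and 131 under the mutant label. Its log2 fold change was -0.002 ± 0.11 (SE, interval -0.23 to 0.22), with overlapping groups, and it was 0.061 without Col-0 replicate 2 and 0.064 without nsra/b replicate 1. Of its bases, 341 are shared with AT4G23800 on the other strand, which fell by 0.22 on the log2 scale (edgeR adjusted p = 0.00013). WRKY46 (chr2:19043411-19044955, minus strand) had the fewest counts, 28, 41 and 34 in Col-0 against 36, 29 and 46 under the mutant label, with overlap. Its interval of -0.27 to 0.58 was the widest (0.83 to 1.5 as a fold), its log2 fold change was 0.16 ± 0.21 (SE, edgeR adjusted p = 0.692) and -3e-04 without nsra/b replicate 3, and no difference was detectable at this depth. The count ratio of WRKY53 to WRKY54 was 2.15, 2.26 and 2 in Col-0 and 2.54, 3.5 and 2.85 in the libraries labelled nsra/b, and that of WRKY54 to WRKY70 was 0.329, 0.386 and 0.330 against 0.302, 0.227 and 0.266, neither with overlap. WRKY70 had a log2 fold change of -0.06 ± 0.10 (SE, edgeR adjusted p = 0.761).

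WRKY6 (chr1:23016569-23019494, minus strand) was at 27.6, 26.0 and 26.5 CPM in Col-0 and 27.2, 28.8 and 29.9 CPM in the libraries labelled nsra/b. The groups overlapped through the lowest library under the mutant label, and the log2 fold change of 0.11 ± 0.05 (SE, interval 0.01 to 0.20) had an edgeR adjusted p of 0.124.

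**Figure D3:**
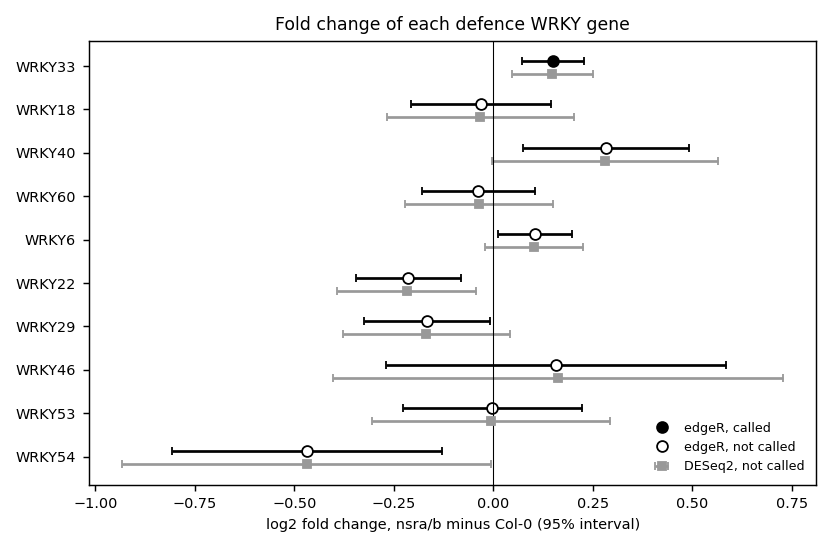
Log2 fold change of each member, libraries labelled nsra/b minus Col-0, with 95% intervals, from edgeR (black, filled where called) and DESeq2 (grey). Only the WRKY33 point of edgeR is filled, and the DESeq2 intervals are wider for all 10 genes, with those of WRKY22, WRKY33 and WRKY54 clear of 0.

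Levels of different genes can be compared only per length, here in TPM, which sets counts per base of merged exon to the same total in each library. In Col-0 the order was WRKY33 (30.6 ± 0.85 TPM, SD, n = 3), WRKY6 (18.2 ± 0.54), WRKY22 (17.5 ± 0.33), WRKY60 (12.2 ± 1.19), WRKY29 (11.0 ± 0.89), WRKY18 (5.51 ± 0.06), WRKY40 (4.97 ± 0.31), WRKY53 (4.46 ± 0.31), WRKY54 (2.21 ± 0.04) and WRKY46 (1.34 ± 0.13). Neighbours whose libraries overlapped were WRKY6 and WRKY22, WRKY60 and WRKY29, and WRKY40 and WRKY53, and their order was not resolved. In the libraries labelled nsra/b the order was the same save that WRKY40 (6.07 ± 0.18 TPM, SD, n = 3) came before WRKY18 (5.43 ± 0.53), with overlap between them. There WRKY6 (19.7 ± 0.94 TPM) lay clear of WRKY22 (15.2 ± 1.30), and WRKY54 (1.61 ± 0.15) overlapped WRKY46 (1.52 ± 0.37). The members reached from the 29.0th to the 80.8th percentile of mean TPM over the annotated genes with at least 1 count. Together they made up 15.4% to 15.9% of the summed TPM of the WRKY genes in every library, and WRKY33 made up 28.0% to 28.5% of the members' sum in Col-0 and 30.0% to 31.9% in the libraries labelled nsra/b.

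**Figure D4:**
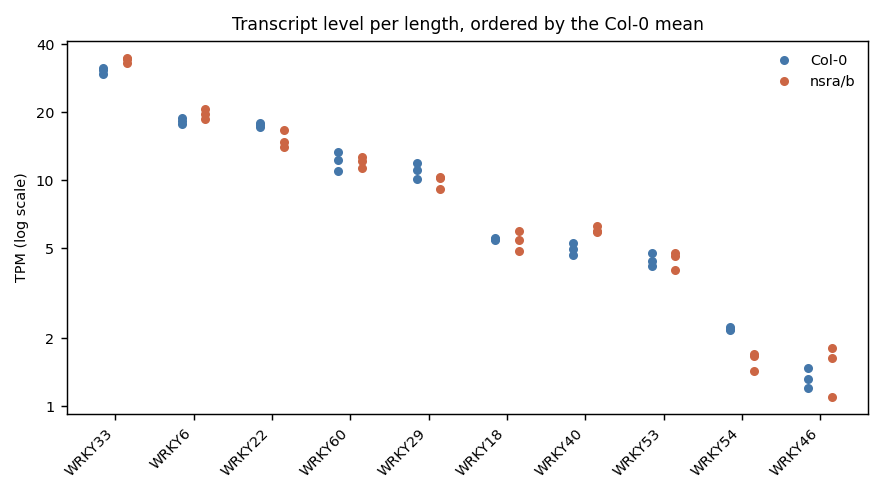
Level of each member per length, in TPM on a log scale, ordered by the mean of Col-0. Each point is 1 library, blue for Col-0 and orange for those labelled nsra/b. The levels span from 1.10 TPM for WRKY46 to 34.8 TPM for WRKY33, and the genotypes differ little against that range.

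Of the 61 other WRKY genes listed, 46 were above the filter, of which 2 rose, 2 fell and 42 did not pass the test. That is 8.7% called, where 8.86% of all features were, with a median log2 fold change of 0.07. WRKY17, a negative regulator of basal resistance to bacteria, rose by 18.4% (log2 fold change 0.24 ± 0.05, SE, edgeR adjusted p = 0.000951), and WRKY45, known for its response to phosphate shortage, rose by 17.3% (0.23 ± 0.06, SE, adjusted p = 0.00405). WRKY49 was 25.6% lower (log2 fold change -0.43 ± 0.08, SE, adjusted p = 0.000117) and WRKY21 11.8% lower (-0.18 ± 0.04, SE, adjusted p = 0.00359). The call of WRKY49 was kept whichever library was left out. WRKY17 lost its call without Col-0 replicate 2 (adjusted p = 0.0139) or 3 (0.0102), WRKY21 without Col-0 replicate 1 (0.0105) or 3 (0.0439) or nsra/b replicate 2 (0.0175), and WRKY45 without each of 5 libraries (0.0105 to 0.0222), all but nsra/b replicate 1. DESeq2 did not call WRKY17 (adjusted p = 0.0152), WRKY21 (0.0365) or WRKY45 (0.057). WRKY25, the relative of WRKY33 that the same kinases are known to act on, was not called (0.05 ± 0.04, SE, adjusted p = 0.467).

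Upstream of the members, 14 genes of receptors and the MAP kinase cascade were all above the filter, and 1 fell, none rose and 13 did not pass (median log2 fold change -0.004). That is 7.14% called, where 8.86% of all features were. FLS2, the flagellin receptor, had 33.03, 32.91 and 32.89 CPM in Col-0 and 25.1, 23.1 and 25.4 CPM in the libraries labelled nsra/b. It was lower in all 3, by 25.6% (log2 fold change -0.43 ± 0.04, SE, edgeR adjusted p = 1.1e-08), and the call held without any single library. MPK3 and MPK6, the kinases that act on WRKY33, had log2 fold changes of -0.07 and -0.09 and were not called (adjusted p = 0.164 and 0.0655). These 2 were picked for their known link to WRKY33 after their values were seen. None of the 3 VQ proteins listed, which bind WRKY33 and relatives of it, was called, where 8.86% of all features were. SIB1 had a log2 fold change of 0.13 ± 0.18 (SE, edgeR adjusted p = 0.717) and SIB2 one of 0.06 ± 0.11 (SE, adjusted p = 0.784), and 0 of the 3 had an unadjusted p under 0.05 or were called by any other test run.

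Downstream, 3 of 7 listed targets and outputs were above the filter, and 1 of them was called (33.3%, where 8.86% of all features were). PAD3, the last enzyme of camalexin synthesis and a known target of WRKY33, had 88, 117 and 116 counts in Col-0, against 133, 159 and 143 in the libraries labelled nsra/b. It rose by 40.2% without overlap (log2 fold change 0.49 ± 0.11, SE, edgeR adjusted p = 0.00143), with the call lost without Col-0 replicate 1 (adjusted p = 0.0127) and in DESeq2 (adjusted p = 0.021). FRK1, the kinase gene that WRKY22 and WRKY29 are known to turn on, was at 8.40, 8.69 and 7.91 CPM in Col-0 and 7.31, 6.84 and 7.20 under the mutant label. The groups did not overlap, and its log2 fold change of -0.23 ± 0.08 (SE) was not called at edgeR adjusted p = 0.0463. PR2, a glucanase gene that salicylic acid induces, had a log2 fold change of 0.20 ± 0.15 (SE, adjusted p = 0.436). CYP71A13, which acts before PAD3 in camalexin synthesis, had 3 to 7 counts per library, JAZ8 5 to 13, RRTF1 0 to 4 and PR1 4 to 15, so that no difference was detectable in them at this depth. The targets were listed with earlier results of these libraries known.

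The 13 genes of the salicylic acid pathway were all above the filter. By edgeR at an adjusted p under 0.01, 0 were called, where 8.86% of all features were (median log2 fold change 0.07). Of the 13, 4 had an unadjusted p under 0.05 (26.7% of all features did), and 0 were called by DESeq2 or limma voom. NPR1, a receptor of salicylic acid, had the smallest p, with a log2 fold change of 0.14 ± 0.04 (SE, adjusted p = 0.0139). PBS3, needed for making the hormone, was at -0.47 ± 0.18 (SE, adjusted p = 0.0838). Of 20 genes known to be induced within minutes by touch, wounding or elicitors, 3 rose (15%, where 5.28% of all features did), none fell and 17 did not pass. Their median log2 fold change was 0.13, against 0 over all features. This list was also drawn up with earlier results of these data known, so its share and median are not independent evidence. The 3 were ERF2, an ethylene response factor (0.41 ± 0.08, SE, edgeR adjusted p = 0.000322), SZF2, a zinc finger protein of the salt response (0.15 ± 0.04, SE, adjusted p = 0.00478), and TCH3, a calmodulin-like protein induced by touch (0.14 ± 0.03, SE, adjusted p = 0.0058). ERF2 kept its call whichever library was left out, while SZF2 and TCH3 each lost it without 4 of the 6 libraries (adjusted p = 0.0172 to 0.0397 and 0.0125 to 0.0798). DESeq2 did not call SZF2 (adjusted p = 0.057) or TCH3 (0.0335). WRKY33 and WRKY40 are known to respond on the same time scale, and whether rapid induction bears on their estimates was not tested.

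**Figure D5:**
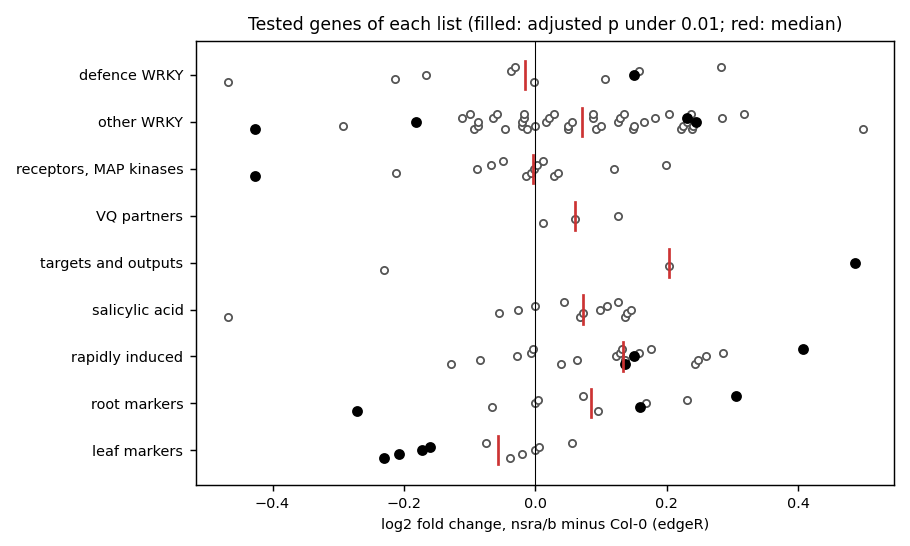
Log2 fold changes, libraries labelled nsra/b minus Col-0, of the tested genes of each list, 1 point a gene. Filled points passed edgeR's test at an adjusted p under 0.01 and red bars are list medians. The defence WRKY genes spread to both sides of 0 with 1 filled point, and FLS2 and PAD3 are the filled points of the receptor and target lists.

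For each member, the gene outside the list with the most similar profile was found by Pearson's r of log2 CPM over the 6 libraries, as a description over points that share libraries and genotype. With 21606 genes and 6 points, high values arise for every member, from 0.977 for WRKY18 to 0.998 for WRKY60. For WRKY33 it was AT5G59130 (r = 0.996), which rose with a log2 fold change of 0.27 (edgeR adjusted p = 6.71e-05), and 9 genes had an r above 0.99. For WRKY40 it was AT2G25530 (r = 0.996, log2 fold change 0.38, adjusted p = 0.00438). The nearest gene to WRKY53 was LHT1 (r = 0.996), an amino acid transporter, and that to WRKY60 was WAKL10 (r = 0.998), a wall-associated kinase-like gene, neither called. WRKY22 was nearest to AT5G08580, WRKY29 to AT2G39690, WRKY54 to AT1G33790, WRKY46 to AT3G08947, WRKY6 to AT1G74458 and WRKY18 to AT2G19090, none of them called.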

How the data were processed

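RNA was measured in 6 libraries of mock-treated seedlings (3 Col-0, 3 nsra/b), grouped by the labels. The authors deposited raw counts per gene: paired reads of 100 nt by the labels (the methods state a longer length) were aligned with tophat, keeping 1 alignment, and counted strand specifically with summarizeOverlaps on Araport11 genes merged with assembled loci. Versions are not given in the sources used here. The NAA-treated and RIP data were not analysed here. Counts were tested with edgeR 4.0.16 in R 4.3.3 (TMM, filterByExpr with minimum count 10 and total 15, quasi-likelihood test on genotype, Benjamini-Hochberg over 21606 features, adjusted p under 0.01). Standard errors came from the F statistic, by dividing the size of the log2 fold change by its root. DESeq2 1.42.0, which the methods name, and limma voom 3.58.1 were alternatives, beside other scalings, filters and thresholds, a replicate block and each library left out. A biological coefficient of variation fixed at 0.1 was added after seeing the data. TPM used exon lengths of the TAIR10.1 annotation. The tests were also run on counts simulated with the spread estimated from these libraries, which cannot show whether that spread is biological. The members, lists and the rule for named genes (called genes of each list, or the 2 of smallest p where none was called, and the nearest profile per member) were chosen with earlier results of these data known. The 3 counts taken as floor, 0.0925 to 0.115 CPM, cover counting error only.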

Additional observations from a re-analysis of the deposited data

How the results depend on the processing

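Of 170 values of single members under the alternatives, 152 kept direction and call, 9 were WRKY33 losing its call, 2 were WRKY22 gaining one and 7 changed sign. Bonferroni adjustment, the 0.05 threshold and the fold minimum use the estimates of the main fit, so direction could not change there. Bonferroni adjustment and the fold minimum also could not add a call, so part of the 152 was fixed in advance. Of the sign changes, WRKY53 was 0.0059 with library size only. With 1 library left out, WRKY18 ran from -0.10 to 0.041 (the highest without nsra/b replicate 2), WRKY46 from -3e-04 (without nsra/b replicate 3) to 0.35, WRKY53 from -0.056 to 0.064 (above 0 without Col-0 replicate 2 or nsra/b replicate 1) and WRKY60 from -0.098 to 0.025 (above 0 without Col-0 or nsra/b replicate 3). Over all features the calls went from 1914 to 1120 with DESeq2, 494 with Bonferroni adjustment, 3218 at an adjusted p under 0.05, 95 with a minimum absolute log2 fold change of 1, 203 with the fixed coefficient of variation of 0.1, and 1290 to 1859 with 1 library left out. Member calls went from 1 to 0 with DESeq2, Bonferroni, the fold minimum and the fixed coefficient, to 2 at 0.05, and to 0 to 1 with 1 library left out. Other WRKY calls went from 4 to 1 with DESeq2, 0 with Bonferroni, the fold minimum and the fixed coefficient, 9 at 0.05, and 1 to 4 with 1 library left out. Receptor and MAP kinase calls went from 1 to 2 at 0.05 and to 0 with the fold minimum and the fixed coefficient. Target calls went from 1 to 0 with DESeq2, Bonferroni, the fold minimum and the fixed coefficient, to 2 at 0.05, and to 0 to 1 with 1 library left out. Salicylic acid calls went from 0 to 1 with library size only and at 0.05. Calls of rapidly induced genes went from 3 to 5 without the count filter, 1 with DESeq2, 0 with Bonferroni, the fold minimum and the fixed coefficient, 8 at 0.05, and 1 to 5 with 1 library left out. The cause of these shifts was not tested, save that stricter thresholds call fewer by construction.

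The shared replicate numbers did not pair the samples: deviations of same-numbered libraries correlated at -0.012, 0.025 and 0.056 over 21606 genes, and not every library correlated best with its own number. With the number as a block, 2093 features and 1 member (WRKY33, adjusted p = 0.0048) were called. With it, the calls were 5 for other WRKY genes, 1 for receptors and MAP kinases, 1 for targets, 0 for VQ proteins, 0 for salicylic acid and 4 for rapidly induced genes. Depth limits WRKY46 and WRKY54 most, at 28 to 66 counts per library.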
